A study of Mus musculus with 8 samples.

Results

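The genes described here are the mouse potassium channel genes, that is, the rows of both deposited count tables whose symbol begins with Kcn, goes on with letters and a number as the nomenclature of the channel subunits does, and holds at least 50 counts summed over 8 libraries. Of 93 such symbols 87 reached the minimum, out of 33885 symbols in all, of which 24700 had at least 1 count. All 87 are protein-coding in GENCODE M21, 73 of them code for pore-forming subunits and 14 for accessory subunits, and they fall into 15 families. Just inside the minimum were Kcnk16 with 68 counts, Kcne1 with 108 and Kcna10 with 124. Just outside it were Kcna7 with 38 counts, Kcnj15 with 34 and Kcnj1 with 9. Kcne4, Kcnj13 and Kcnmb1 were listed at 0, where 3 counts among the 1115295740 of all libraries is the floor that a count of 0 allows. This floor covers counting error only. The gene model of Kcnmb1 overlaps that of Kcnip1 on the opposite strand without shared exon bases. How reads over overlapping genes were treated is not stated, so a listed 0 cannot be read as absence of the RNA.

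Total RNA was sequenced from adult males of the inbred mouse strain C57Bl6J, with 2 libraries in each of 4 groups from 2 brain regions. Nucleus accumbens (NAc) libraries came from mice given 7.5 mg/kg of cocaine i.p. in a chamber for place-preference conditioning, with tissue taken 15 min afterwards, and from home-cage mice. Medial prefrontal cortex (mPFC) libraries, whose titles hold the letters WT, came from mice that had been defeated by aggressive CD1 males and from home-cage mice. Tissue of the defeated mice was again taken 15 min afterwards. The home-cage mice had neither experience, so cocaine cannot be told apart from injection and handling, and defeat cannot be told apart from handling. Each region has its own count table and the labels name no batch, so region and any separate handling of the 2 sets of libraries cannot be told apart. The labels do not say whether a library is 1 animal or a pool, nor whether the libraries of a group are separate animals, and p-values then measure only the spread between these libraries.

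Potassium channels let potassium cross the cell membrane down its gradient, which sets the resting potential of a neuron, repolarises it after an action potential and limits how fast it can fire again. Voltage-gated (Kv) and calcium-gated channels open during activity, whereas inward rectifiers and two-pore-domain channels carry much of the current at rest. In the striatum, to which the NAc belongs, the principal cells are GABAergic projection neurons held at a very negative resting potential by inward rectifiers, and their A-type and Kv1-type currents delay firing. In the mPFC the principal cells are glutamatergic pyramidal neurons, and fast-spiking interneurons of the cortex depend on Kv3 channels. Accessory subunits such as the KChIP, Kv beta, KCNE and BK beta proteins change the gating or the transport of the pores they bind.

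The regional difference was the one comparison in which potassium channel genes passed the test, and the promoters of 4 genes from its ends are shown here. Kcna5 and Kcnk13 were the 2 members with the highest log2 fold change in NAc, and Kcnk4 and Kcns1 were among the 4 with the lowest. Each line gives the 250 bases before the annotated transcription start, 5′ to 3′ on the strand of the gene, from RefSeq on GRCm38.p6, and capitals mark the GC box (GGGCGG or its reverse complement CCGCCC). For Kcna5 the RefSeq start lies upstream of that of GENCODE M21.
Kcna5, chr6:126535556-126535805, minus strand: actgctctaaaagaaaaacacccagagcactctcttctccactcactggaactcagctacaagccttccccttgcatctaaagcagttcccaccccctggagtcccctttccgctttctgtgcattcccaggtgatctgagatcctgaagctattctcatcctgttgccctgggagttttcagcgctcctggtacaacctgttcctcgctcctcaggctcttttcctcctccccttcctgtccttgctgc
Kcnk13, chr12:99964249-99964498, plus strand: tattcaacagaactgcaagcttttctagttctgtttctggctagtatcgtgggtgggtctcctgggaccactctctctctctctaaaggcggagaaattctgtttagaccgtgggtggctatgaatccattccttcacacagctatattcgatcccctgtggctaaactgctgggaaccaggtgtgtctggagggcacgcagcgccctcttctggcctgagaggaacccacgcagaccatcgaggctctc
Kcnk4, chr19:6934516-6934765, minus strand: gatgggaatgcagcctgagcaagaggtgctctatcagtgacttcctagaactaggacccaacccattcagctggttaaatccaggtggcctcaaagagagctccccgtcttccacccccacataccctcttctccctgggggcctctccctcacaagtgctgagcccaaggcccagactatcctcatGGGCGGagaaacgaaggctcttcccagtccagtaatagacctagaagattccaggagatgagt
Kcns1, chr2:164171114-164171363, minus strand: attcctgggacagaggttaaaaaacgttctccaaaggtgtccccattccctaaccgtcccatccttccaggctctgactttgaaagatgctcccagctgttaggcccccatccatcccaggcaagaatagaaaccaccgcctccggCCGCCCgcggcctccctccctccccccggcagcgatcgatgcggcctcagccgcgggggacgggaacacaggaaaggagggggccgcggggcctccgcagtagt

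Of the 4 windows, those of Kcnk4 and Kcns1 held a GC box, which started at position -63 in Kcnk4 and -104 in Kcns1, counted back from the transcription start, and those of Kcna5 and Kcnk13 held none. Promoters were found for 62 of the 87 members, in 87 windows. A GC box on either strand was present in 48.3% of the members' windows and in 32.7% of the 32851 windows of all promoters. The E-box CAGATG (either strand) was in 14.9% of the members' windows and in 14.4% of all, the cAMP response element TGACGTCA was in 0% and 1.55%, and TATAAA (either strand) was in 2.30% and 12.4%. The members' windows were also richer in G and C, with a median of 58.8% against 52.4% for all promoters. Their median number of CG pairs was 8, against 6. The part of base composition in the motif shares was not tested. The windows of members higher in NAc (10 windows) held a GC box in 40.0% and those of members lower in NAc (18 windows) in 44.4%. No searched motif contains another, and a match is a description of the letters only.

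Library totals lay between 111901829 and 179479978 counts. Levels are given in CPM, which are read counts divided by the TMM-scaled size of the library. Summed over all members, the level was 14061 and 13538 CPM after cocaine and 14379 and 13354 CPM in home-cage NAc, against 13893 and 14816 CPM after defeat and 14491 and 14233 CPM in home-cage mPFC. These sums overlapped between the regions, so the regional differences below are differences among members. A set of 12 markers of striatal projection neurons summed to between 819 and 3056 CPM in the NAc libraries, against 149 to 162 CPM in the mPFC libraries, and 11 of the 12 were higher in home-cage NAc. A set of 12 cortical glutamatergic markers summed to 977 to 1911 CPM in the NAc libraries, against 2721 to 2971 CPM in the mPFC libraries. Only 4 of the 12 were lower in home-cage NAc, and 0 were higher. Rorb of this set had a positive value and did not pass (log2 fold change 0.34, SE 0.146, adjusted p = 0.188, edgeR). The mean log2 CPM of the striatal set minus that of the cortical set was 1.74 and -0.40 after cocaine and 2.34 and -0.53 in home-cage NAc, against -4.87 and -4.87 after defeat and -4.82 and -4.76 in home-cage mPFC. In each NAc group the library numbered 2 by its label was therefore much nearer to mPFC on this scale than the library numbered 1, and the part of this in the members' values is given below as values by library.

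Reads per gene also depend on length, and the sources used here do not say whether introns were counted, so the order of members was read per kilobase of merged exon and again per kilobase of gene. Per kilobase of exon Kcnip4, a KChIP that binds Kv4 channels, had 543 CPM in NAc and 879 CPM in mPFC, as means over the 4 libraries of a region, and was the highest member on that scale. It was followed by Kcnd2, the main A-type pore, with 214 CPM per exon kilobase in NAc and 134 in mPFC, and by Kcnq5, an M-current subunit, with 143 in NAc and 110 in mPFC. Per kilobase of gene the same 3 members stood at 1.73 and 2.81, 2.15 and 1.34, and 1.95 and 1.49 CPM in NAc and mPFC, well below the short genes Kcna1, an axonal Kv1 pore, at 21.8 CPM in NAc and 18.8 CPM in mPFC, and Kcnf1, a silent subunit, at 14.8 CPM in NAc and 33.0 CPM in mPFC. The order of members by level therefore depends on whether introns were counted, and levels below are compared between libraries within a gene.

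In home-cage mice, 9 members were higher and 14 lower in NAc than in mPFC (edgeR's quasi-likelihood test, Benjamini-Hochberg adjusted over all genes, threshold 0.05), with 86 of the 87 tested. That is 26.7% of the members tested, against 12.4% of the 18300 genes tested, of which 7.01% were higher and 5.35% lower. The median absolute log2 fold change was 0.56 for members and 0.26 for all genes, the median log2 fold change was -0.20 for members and 0.01 for all genes, and 20 members differed by more than 1 on the log2 scale. In tissue, fewer cells of a type and less RNA per cell cannot be told apart. The calls rest on the small spread within the mPFC pair, since without mPFC home-cage replicate 1, or without replicate 2, no member and none of the 18752 or 18806 genes tested passed, whereas without NAc home-cage replicate 1 or 2 all 23 still passed, among 53 and 70 members called (29.6% and 42.9% of all genes tested).

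**Figure D1:**
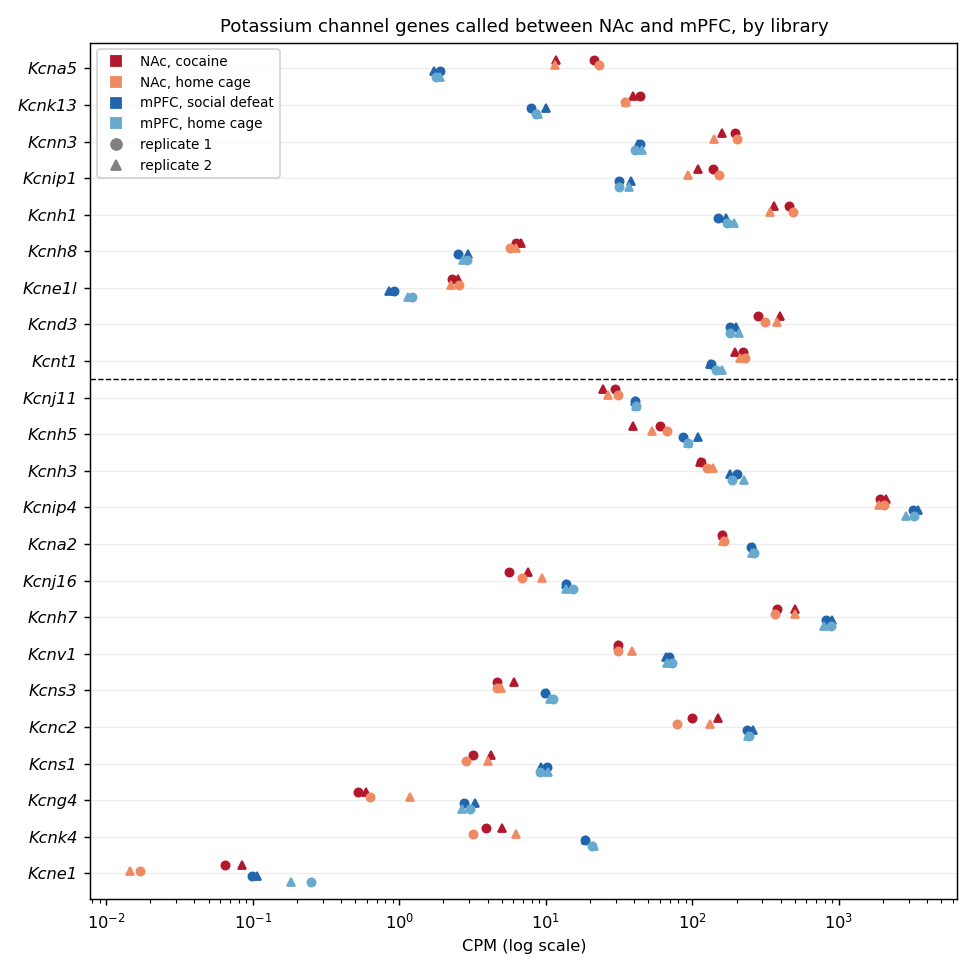
Level of the 23 potassium channel genes that passed between NAc and mPFC in home-cage mice, in CPM on a log axis, with 1 point for each of the 8 libraries (circles replicate 1, triangles replicate 2). Genes above the dashed line were higher in NAc, and for Kcna5 the 4 NAc libraries lie between 11.6 and 23.0 CPM while the 4 mPFC libraries lie between 1.72 and 1.91 CPM.

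Kcna5, a delayed rectifier pore of the Kv1 family best known from heart and vessels, showed the largest positive difference among members tested. Kcna5 (6:126532551-126535412, minus strand, mm10) had 21.2 and 11.6 CPM after cocaine and 23.0 and 11.6 CPM in home-cage NAc, against 1.91 and 1.72 CPM after defeat and 1.77 and 1.90 CPM in home-cage mPFC. All 4 NAc libraries were above all 4 mPFC libraries, and in NAc both libraries numbered 1 were about double those numbered 2. The home-cage log2 fold change was 3.24 (SE 0.354, adjusted p = 0.00912, edgeR). The other Kv1 member that passed went the other way. Kcna2, a Kv1 pore of axons and their terminals, had 158 and 163 CPM after cocaine and 163 and 161 CPM in home-cage NAc, against 250 and 260 CPM after defeat and 263 and 253 CPM in home-cage mPFC, and its NAc libraries lay closely together below those of mPFC (log2 fold change -0.67, SE 0.103, adjusted p = 0.0197). Kcna4, an A-type Kv1 pore, had 79.2 and 38.0 CPM in home-cage NAc, against 23.8 and 21.2 CPM in home-cage mPFC, and did not pass (log2 fold change 1.38, SE 0.339, adjusted p = 0.0595).

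Kcnk13, a two-pore-domain channel that in the brain is known from microglia, was nearly equal in the 2 home-cage NAc libraries. Kcnk13 (12:99964499-100062682, plus strand) had 43.8 and 39.4 CPM after cocaine and 34.8 and 35.4 CPM in home-cage NAc, against 7.88 and 10.1 CPM after defeat and 8.63 and 8.78 CPM in home-cage mPFC. The regions did not overlap, and the NAc libraries of different number were close to each other. Its home-cage log2 fold change of 2.01 (SE 0.095) had the smallest adjusted p of all members, 0.00207. A set of 8 microglial markers summed to 155 to 181 CPM in the NAc libraries, against 179 to 199 CPM in the mPFC libraries. Of the 8, 1, P2ry12, was listed at 0 throughout. The part of microglial RNA in the level of Kcnk13 was not tested. Kcnk4, a mechanically gated two-pore-domain channel of neurons, was the opposite case. Kcnk4 (19:6923966-6934515, minus strand) had 3.88 and 5.03 CPM after cocaine and 3.20 and 6.26 CPM in home-cage NAc, against 18.5 and 18.8 CPM after defeat and 20.7 and 21.4 CPM in home-cage mPFC, again without overlap (log2 fold change -2.16, SE 0.320, adjusted p = 0.0181). The gene shares 587 bp of exon with Catsperz on the same strand, so its counts are uncertain, although Catsperz itself held 1253 counts in all libraries together. None of the other 11 two-pore-domain members tested passed.

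Kcnn3, a small-conductance calcium-activated (SK) channel that contributes to the afterhyperpolarisation, had 194 and 159 CPM after cocaine and 202 and 140 CPM in home-cage NAc, against 43.8 and 42.5 CPM after defeat and 40.3 and 45.5 CPM in home-cage mPFC. The NAc libraries were about 4 times as high as the mPFC libraries and did not overlap with them (log2 fold change 1.99, SE 0.199, adjusted p = 0.00763). Its relative Kcnn2, the SK channel of many cortical and hippocampal neurons, had 138 and 177 CPM in home-cage NAc, against 191 and 182 CPM in home-cage mPFC, and did not pass (log2 fold change -0.25, SE 0.151, adjusted p = 0.322). Of the BK and sodium-activated channels, Kcnt1, which carries a sodium-activated current, was higher in NAc, with 222 and 196 CPM after cocaine and 229 and 213 CPM in home-cage NAc, against 135 and 132 CPM after defeat and 144 and 159 CPM in home-cage mPFC (log2 fold change 0.54, SE 0.113, adjusted p = 0.0410). Its relative Kcnt2 just missed the threshold (log2 fold change -0.64, SE 0.152, adjusted p = 0.0539), with 114 and 137 CPM in home-cage NAc, against 213 and 178 CPM in home-cage mPFC. The BK pore Kcnma1 did not pass in the home-cage mice (log2 fold change 0.42, SE 0.144, adjusted p = 0.120).

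**Figure D2:**
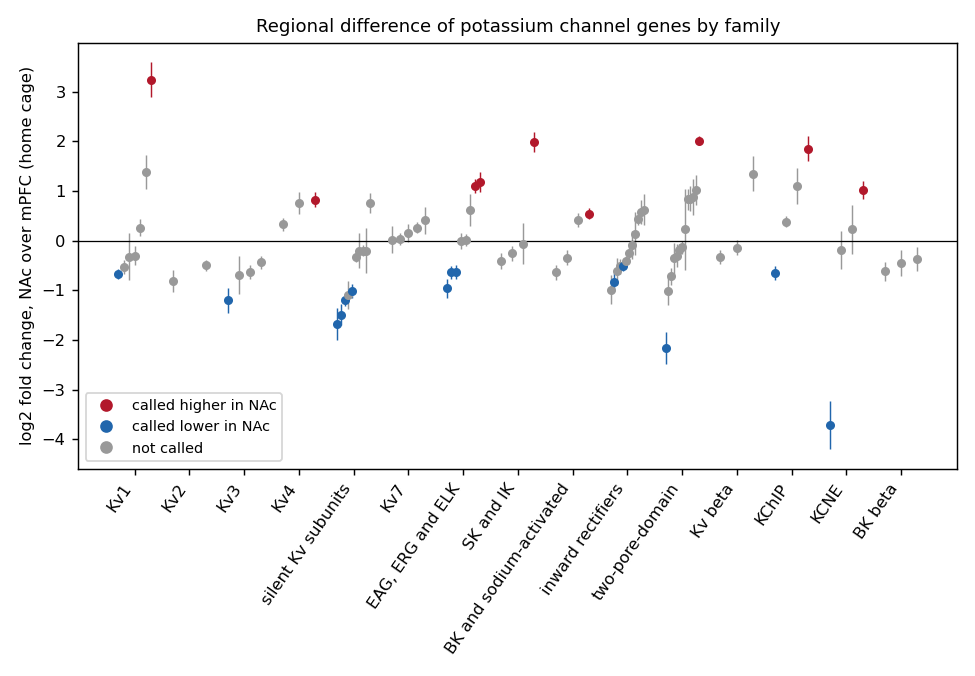
Log2 fold change of each tested member between NAc and mPFC in home-cage mice, by family, with bars of 1 SE. All 3 Kv4 and all 5 Kv7 members lie above 0 and all 4 Kv3 members below it, while the Kv1, EAG, ERG and ELK, two-pore-domain, KChIP and KCNE families hold members that passed in both directions.

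The silent Kv subunits, which form no channel alone but join Kv2 pores and change their gating, held the most members lower in NAc, 4 of the 10 tested. Kcns1 had 3.19 and 4.20 CPM after cocaine and 2.84 and 4.05 CPM in home-cage NAc, against 10.2 and 9.24 CPM after defeat and 9.08 and 10.3 CPM in home-cage mPFC. Kcnv1 had 31.1 and 31.1 CPM after cocaine and 31.2 and 38.4 CPM in home-cage NAc, against 68.9 and 66.3 CPM after defeat and 73.0 and 66.8 CPM in home-cage mPFC. In neither gene did the regions overlap, and the log2 fold changes were -1.49 (SE 0.206, adjusted p = 0.0153) for Kcns1 and -1.01 (SE 0.135, adjusted p = 0.0143) for Kcnv1. Kcns3 and Kcng4 were also lower, by -1.19 (SE 0.118) and -1.67 (SE 0.322) on the log2 scale. Kcng4 was at under 1.2 CPM in each NAc library. Kcng1 was the 1 silent subunit with a positive value, 0.76 (SE 0.194, adjusted p = 0.0643). Kcnb2, a Kv2 pore that such subunits join, did not pass (log2 fold change -0.81, SE 0.220, adjusted p = 0.0744).

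Among the Kv3 pores, which let fast-spiking neurons repolarise quickly, Kcnc2 was lower in NAc. It had 99.2 and 151 CPM after cocaine and 78.7 and 132 CPM in home-cage NAc, against 235 and 258 CPM after defeat and 244 and 239 CPM in home-cage mPFC. The 4 NAc libraries were all below the mPFC libraries, with the libraries numbered 2 nearer to them (log2 fold change -1.20, SE 0.255, adjusted p = 0.0422). The other 3 Kv3 genes had home-cage log2 fold changes between -0.69 and -0.44 with adjusted p from 0.0517 to 0.278. Of a set of 8 interneuron markers, 2 were lower in home-cage NAc, namely Pvalb, the marker of fast-spiking interneurons (log2 fold change -2.60, SE 0.301, adjusted p = 0.0104), and Lhx6 (-0.48, SE 0.0961, adjusted p = 0.0374). Chat and Gad1 were higher, and the summed level of the set, 657 to 988 CPM in the NAc libraries against 518 to 543 CPM in the mPFC libraries, is mostly that of Gad1, Gad2 and Sst, of which Gad1 and Gad2 are also expressed by striatal projection neurons. Pvalb had 2.30 and 3.41 CPM after cocaine and 1.66 and 3.06 CPM in home-cage NAc, against 14 and 16.7 CPM after defeat and 14.3 and 14.1 CPM in home-cage mPFC, and the part of fast-spiking cells in the level of Kcnc2 was not tested.

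The A-type channel is built of Kv4 pores with KChIP and DPP partners, and its parts did not share a direction. Kcnd3, a Kv4 pore, had 281 and 395 CPM after cocaine and 311 and 379 CPM in home-cage NAc, against 180 and 197 CPM after defeat and 182 and 209 CPM in home-cage mPFC, and was higher in NAc without overlap (log2 fold change 0.82, SE 0.150, adjusted p = 0.0297). Kcnd2, the other main Kv4 pore, had 1271 and 881 CPM after cocaine and 1363 and 905 CPM in home-cage NAc, against 665 and 748 CPM after defeat and 713 and 630 CPM in home-cage mPFC. The regions did not overlap for Kcnd2 either, but its spread in NAc was wide and it did not pass (log2 fold change 0.75, SE 0.221, adjusted p = 0.0861). Of the KChIPs, Kcnip1 was higher in NAc, with 138 and 109 CPM after cocaine and 152 and 93.6 CPM in home-cage NAc, against 31.4 and 38.3 CPM after defeat and 31.3 and 36.7 CPM in home-cage mPFC (log2 fold change 1.85, SE 0.247, adjusted p = 0.0143). Kcnip4 was lower, with 1900.45 and 2079 CPM after cocaine and 2029 and 1867 CPM in home-cage NAc, against 3183 and 3464 CPM after defeat and 3245 and 2866.5 CPM in home-cage mPFC (log2 fold change -0.65, SE 0.149, adjusted p = 0.0495). Kcnip2, a KChIP abundant in striatal neurons, had 240 and 111 CPM in home-cage NAc, against 74.2 and 89.4 CPM in home-cage mPFC, and did not pass (log2 fold change 1.10, SE 0.359, adjusted p = 0.108). Of the DPP proteins, which speed up A-type gating, Dpp6 was higher in NAc (log2 fold change 1.33, SE 0.161, adjusted p = 0.0112), and Dpp10 did not pass (log2 fold change -0.60, SE 0.213, adjusted p = 0.125).

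The EAG, ERG and ELK family of voltage-gated pores was divided, with 2 members higher and 3 lower of 8 tested. Kcnh1, an EAG pore, had 453 and 362 CPM after cocaine and 489 and 340 CPM in home-cage NAc, against 150 and 168 CPM after defeat and 171 and 193 CPM in home-cage mPFC. Its closest relative Kcnh5 had 60.4 and 39.6 CPM after cocaine and 67.3 and 53.3 CPM in home-cage NAc, against 86.8 and 109 CPM after defeat and 94.0 and 92.6 CPM in home-cage mPFC. The 2 EAG genes thus differed in opposite directions, by 1.18 (SE 0.199, adjusted p = 0.0243) for Kcnh1 and -0.63 (SE 0.136, adjusted p = 0.0433) for Kcnh5. The ELK genes were split likewise, with 1.10 (SE 0.142, adjusted p = 0.0132) for Kcnh8 and -0.64 (SE 0.137, adjusted p = 0.0422) for Kcnh3. Kcnh7, an ERG pore, had 376 and 500 CPM after cocaine and 364 and 501 CPM in home-cage NAc, against 811 and 891 CPM after defeat and 884 and 794 CPM in home-cage mPFC (log2 fold change -0.96, SE 0.190, adjusted p = 0.0362). Kcnh7 shares 696 bp of exon with Gca on the opposite strand, and no source used here says whether the counting used strand. In all, 26 members, 5 of them among the 23 called, share exon bases with another gene model. All 5 Kv7 genes had positive values from 0.02 to 0.41 and none passed. The smallest adjusted p among them was 0.166 (edgeR) for Kcnq1, whose exons share 121 bp with the antisense RNA Kcnq1ot1.

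Of 12 inward rectifiers, 2 were lower in NAc and none higher. Kcnj16, a subunit found in astrocytes and in kidney, had 5.57 and 7.60 CPM after cocaine and 6.87 and 9.36 CPM in home-cage NAc, against 13.7 and 13.8 CPM after defeat and 15.3 and 13.7 CPM in home-cage mPFC (log2 fold change -0.84, SE 0.180, adjusted p = 0.0432). Its partner Kcnj10, the main inward rectifier of astrocytes, had 106 and 94.5 CPM in home-cage NAc, against 138 and 129 CPM in home-cage mPFC, and did not pass (log2 fold change -0.42, SE 0.111, adjusted p = 0.0683). A set of 8 astrocyte markers had sums of 616 to 698 CPM in the NAc libraries, against 773 to 832 CPM in the mPFC libraries. Of the 8, 3 were lower in home-cage NAc and 0 higher, and the set did not move as 1. Gfap had a log2 fold change of 0.14 (SE 0.135), Slc1a3 -0.08 (SE 0.11) and Gja1 -0.11 (SE 0.102). Much of the difference in sums was Aldoc, with 194 and 192 CPM in home-cage NAc, against 274 and 310 CPM in home-cage mPFC. The part of astrocyte RNA in these values was not tested. Kcnj11, the pore of the ATP-sensitive channel, had 29.8 and 24.5 CPM after cocaine and 31.1 and 26.6 CPM in home-cage NAc, against 40.3 and 40.3 CPM after defeat and 40.9 and 41.0 CPM in home-cage mPFC (log2 fold change -0.51, SE 0.109, adjusted p = 0.0431). Kcnj4 and Kcnj2, strong rectifiers of striatal projection neurons, did not pass, Kcnj4 with 0.43 (SE 0.123, adjusted p = 0.0829) and Kcnj2 with 0.14 (SE 0.429, adjusted p = 0.853) on the log2 scale.

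The KCNE proteins are small single-pass partners of Kv7 and other pores, and both KCNE genes that passed were low. Kcne1l had 2.30 and 2.52 CPM after cocaine and 2.55 and 2.26 CPM in home-cage NAc, against 0.920 and 0.846 CPM after defeat and 1.22 and 1.15 CPM in home-cage mPFC (log2 fold change 1.02, SE 0.173, adjusted p = 0.0246). Kcne1 had 9 and 12 counts after cocaine and 3 and 2 counts in home-cage NAc, against 13 and 15 counts after defeat and 34 and 20 counts in home-cage mPFC. Its home-cage log2 fold change of -3.71 (SE 0.487, adjusted p = 0.0137) was the most negative of the members and rested on these few counts, and it was -0.46 (SE 0.384, adjusted p = 0.390) between cocaine NAc and defeat mPFC. No Kv beta or BK beta gene passed, although Kcnab1, a Kv beta subunit that inactivates Kv1 pores, had 616 and 292 CPM in home-cage NAc, against 175 and 182 CPM in home-cage mPFC (log2 fold change 1.35, SE 0.346, adjusted p = 0.0652).

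The 24 listed partners are not channel subunits of this nomenclature and were chosen with earlier results known. Of the 24, 4 were higher and 3 lower in home-cage NAc, against 7.01% and 5.35% of the 18300 genes tested. Besides Dpp6, the higher ones were Kctd12, an auxiliary subunit of GABA-B receptors, with a log2 fold change of 0.74 (SE 0.0917), Cntn2, an adhesion protein at which axonal Kv1 channels gather, with 0.53 (SE 0.116), and Lrrc52, a gamma subunit of BK channels with 62 counts in all libraries together. The lower ones were Lrrc38 (-1.61, SE 0.168) and Lrrc55 (-0.98, SE 0.155), which are gamma subunits of BK channels, and Amigo2 (-1.13, SE 0.220), an adhesion protein related to the Kv2 partner Amigo1. None of the 24 tested in NAc after cocaine, and none of the 23 tested in mPFC after defeat, passed.

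The 4 libraries of mice with an experience share none with the home-cage comparison and gave a second reading of the regions, an alternative chosen after seeing the data. In this reading, region cannot be told apart from the kind of experience. Same-numbered NAc libraries of the cocaine and home-cage groups also deviated together (r = 0.609), so the second reading is not an independent repeat. Between cocaine NAc and defeat mPFC, 48 of 87 members passed, 20 higher and 28 lower, which is 55.2% of members against 36.3% of the 18362 genes tested, of which 19.2% were higher and 17.1% lower. All 23 home-cage calls had the same direction there, and 22 of the 23 passed, the exception being Kcne1. These 22 are also 22 of the 48 called between the exposed groups. Of the 26 members called there only, 25 had the same sign in the home cage and Kcnk16 was not tested in the home cage. The matching shares among all genes called in either comparison were not computed, so these counts of recurring calls describe the members only. Over all libraries, 23 members (26.4%) had all 4 NAc libraries above all 4 mPFC libraries, and 35 (40.2%) had them all below, against 24.7% and 22.3% of the 18418 genes tested in NAc.

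**Figure D3:**
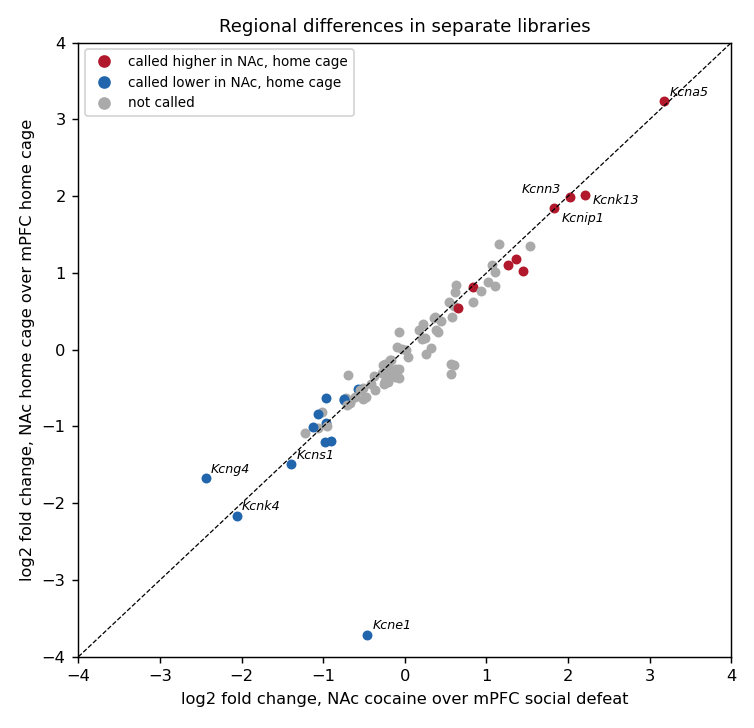
Log2 fold change of each member between the regions in home-cage mice (y axis) against that between cocaine NAc and defeat mPFC (x axis), which share no library, with the dashed line marking equality. Kcna5 lies at 3.24 in the home cage and 3.18 in the exposed groups, and Kcne1 is off the line with -3.71 in the home cage and -0.46 in the exposed groups.

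Members varied within NAc by the number on the label. In 61 of 87 members (70.1%) both NAc libraries numbered 1 lay above or below both numbered 2, 26 above and 35 below, against 59.4% of the 18418 genes tested, 29.6% above and 29.8% below. Kcnip2 was higher in number 1 by 1.14 among cocaine libraries and by 1.11 among home-cage libraries on the log2 CPM scale, and Kcnh4, an ELK pore, by 1.07 and 1.03. Kcnj6, a G protein-gated inward rectifier, went the other way with -0.61 among cocaine libraries and -0.87 among home-cage libraries. Some regional calls came with almost no such difference. Kcnk13 differed between the numbers by 0.15 among cocaine libraries and -0.02 among home-cage libraries, and Kcna2 by -0.04 and 0.02.

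In 39 members (44.8%) the libraries numbered 2 lay between those numbered 1 and the mPFC mean in both groups, against 34.8% of all genes tested, and 13 of the 39 were among the 23 regional calls. In 13 members (14.9%) the libraries numbered 2 were instead farther from mPFC than those numbered 1, against 15.8% of all genes tested. Of these, 4 were regional calls, namely Kcnd3, Kcnh5, Kcnh8 and Kcnj11. Kcnd3 and Kcnh8 were above their mPFC level and higher in number 2, and Kcnh5 and Kcnj11 were below theirs and lower in number 2. In these 4 genes the regional difference was therefore larger in the libraries whose striatal minus cortical score was nearer to mPFC. Among cocaine libraries, which the home-cage comparison does not use, number 1 was above number 2 in 6 of the 9 members higher in NAc and below it in 11 of the 14 lower in NAc. For these counts of called members, the matching shares among all genes called between regions were not computed. The counts therefore describe these members only. The part of tissue makeup in the differences between the numbers was not tested.

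**Figure D4:**
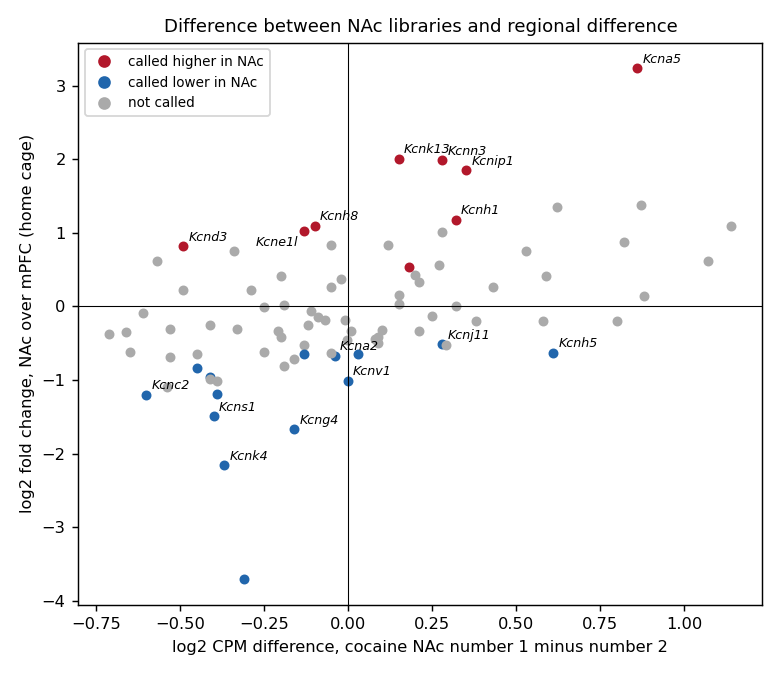
Regional log2 fold change of each member in home-cage mice (y axis) against the log2 CPM difference between the 2 cocaine NAc libraries, number 1 minus number 2 (x axis). Kcna5 lies at 0.86 and 3.24, Kcnk13 near 0 on the x axis at 0.15 and 2.01, and Kcnd3 left of 0 at -0.49 with a regional value of 0.82.

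In NAc after cocaine, no potassium channel gene passed among 86 tested, and 0% of the 18418 genes tested passed (edgeR). With DESeq2, too, no member passed, and 4 genes passed in all. At an unadjusted p under 0.05 stood 1 member, Kcnk13, and 211 genes in all, or 1.15%. Its cocaine libraries had 43.8 and 39.4 CPM, against 34.8 and 35.4 CPM in home-cage NAc, and did not overlap with them (log2 fold change 0.25, SE 0.0877, adjusted p = 1). The groups did not overlap in 17 members, or 19.8% of those tested, against 23.7% of all genes. In 10 of them cocaine was higher, against 11.8% of all genes, and in 7 lower, against 11.9%. The median absolute log2 fold change was 0.09 for members and 0.08 for all genes.

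By the size of their p, the next members with positive values after cocaine were low ones. Kcnmb3, a BK beta subunit, had 0.461 and 0.463 CPM after cocaine and 0.294 and 0.333 CPM in home-cage NAc (log2 fold change 0.56, SE 0.233), and Kcnk5, an acid-sensitive two-pore-domain channel, had 0.887 and 0.813 CPM after cocaine and 0.695 and 0.571 CPM in home-cage NAc (log2 fold change 0.42, SE 0.213). Negative values with the smallest p were those of Kcnh3, with 114 and 112 CPM after cocaine and 126 and 139 CPM in home-cage NAc (log2 fold change -0.23, SE 0.0966), and of Kcnab3, a Kv beta subunit, with 11.3 and 11.2 CPM after cocaine and 12.4 and 15.1 CPM in home-cage NAc (log2 fold change -0.29, SE 0.129). All of these had an adjusted p of 1. Over the 64 members with a mean of at least 10 CPM, the log2 fold change ran from -0.30 (Kcnj16) to 0.30 (Kcnmb2), with a median SE of 0.217. A set of 10 oligodendrocyte markers summed to 2641 and 2330 CPM after cocaine and 2472 and 1385 CPM in home-cage NAc, and its part in these values was not tested.

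In mPFC after social defeat, no member passed among 86 tested, against 0.704% of the 18027 genes tested (127 genes, 0.549% higher and 0.155% lower, edgeR), and DESeq2 called no member and 94 genes in all. An unadjusted p under 0.05 was reached by 10 members, 1 higher and 9 lower, or 11.6% of those tested, against 7.14% of all genes. Values were negative in 58 members and positive in 28. Both defeat libraries lay below both home-cage libraries in 21 members, or 24.4%, against 17.8% of all genes, and above them in 5 members, against 16.4% of all genes. Without regard to direction these are 26 members, or 30.2%, against 34.2% of all genes. The median log2 fold change was -0.04 for members and -0.0028 for all genes.

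Kcnj10 had the smallest adjusted p of the members after defeat, with 112 and 116 CPM after defeat and 138 and 129 CPM in home-cage mPFC. The groups did not overlap, and the difference did not pass (log2 fold change -0.23, SE 0.0760, adjusted p = 0.243, edgeR). A set of 8 astrocyte markers summed to 808 and 773 CPM after defeat and 800 and 832 CPM in home-cage mPFC, and the oligodendrocyte set to 1155 and 1263 CPM after defeat and 1553 and 1291 CPM in home-cage mPFC. Their part in the level of Kcnj10 was not tested. Kcne1 had the most negative log2 fold change of the members, -1.08 (SE 0.406, adjusted p = 0.387, edgeR). That value rested on 13 and 15 counts after defeat and 34 and 20 counts in home-cage mPFC. Kcnh1 had 150 and 168 CPM after defeat and 171 and 193 CPM in home-cage mPFC (log2 fold change -0.19, SE 0.0787, adjusted p = 0.493), and Kcnt1 had 135 and 132 CPM after defeat and 144 and 159 CPM in home-cage mPFC (log2 fold change -0.18, SE 0.0764, adjusted p = 0.528). In both the defeat libraries lay below the home-cage libraries. Kcnk5 was the 1 member with a positive value among the 10, with 0.585 and 0.512 CPM after defeat and 0.339 and 0.371 CPM in home-cage mPFC (log2 fold change 0.63, SE 0.259, adjusted p = 0.495). Over the 64 members with a mean of at least 10 CPM the log2 fold change ran from -0.23 (Kcnj10) to 0.12 (Kcnip4), with a median SE of 0.0804.

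**Figure D5:**
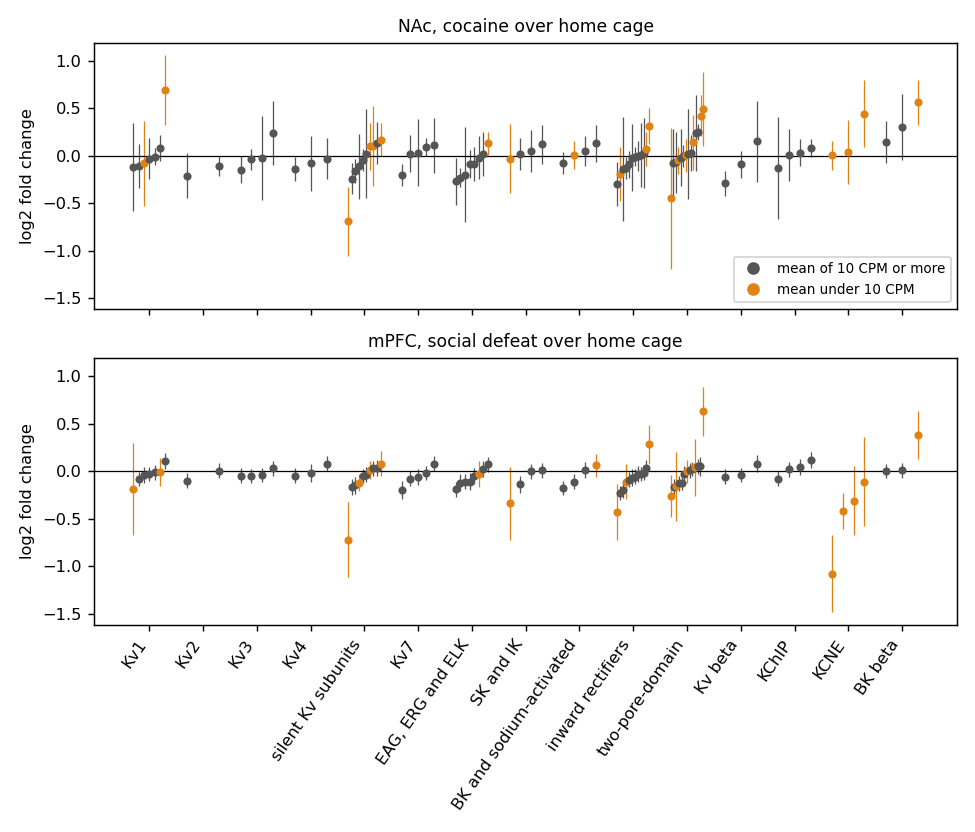
Log2 fold change of each tested member, with bars of 1 SE, by family, after cocaine over home cage in NAc (upper panel) and after social defeat over home cage in mPFC (lower panel); orange points have a mean under 10 CPM. Members of at least 10 CPM stay between -0.30 and 0.30 in NAc and between -0.23 and 0.12 in mPFC.

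The difference between the response to cocaine in NAc and the response to defeat in mPFC was tested as 1 contrast over all 8 libraries. No member passed among 87 tested, and 0% of the 18783 genes tested passed, with 2 members and 415 genes (2.21%) at an unadjusted p under 0.05. DESeq2 called 2 genes and no member. The 2 members were Kcne1, with a difference of 3.25 on the log2 scale (SE 0.598, adjusted p = 1) that rests on the few counts given above, and Kcnab3, with -0.37 (SE 0.146, adjusted p = 1). Kcnab3 had 11.3 and 11.2 CPM after cocaine and 12.4 and 15.1 CPM in home-cage NAc, and 17.8 and 18.7 CPM after defeat and 17.4 and 17.1 CPM in home-cage mPFC.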

How the data were processed

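Raw counts per gene symbol in 2 tables, 1 per region, were deposited by the authors without normalization. Reads had been aligned with STAR 2.7.1a to mm10 and counted with featureCounts, per the submitters' processing notes, and the RNA was isolated with a QIAGEN miRNeasy kit and made into total RNA libraries, per the labels' protocols. Of the counting, neither the annotation nor how strand, introns and multiply aligned reads were treated is stated in the sources used here. Intervals and floors cover counting error only.

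Tests were run with edgeR 4.0.16 in R 4.3.3 (filterByExpr, TMM, estimateDisp, glmQLFit and glmQLFTest, default settings), Benjamini-Hochberg adjustment over all genes tested and a threshold of 0.05. Each comparison used its own 4 libraries, and the difference between responses used all 8. The standard error (SE) of a log2 fold change is its size divided by the square root of F. Alternatives were DESeq2 1.42.0, RLE factors, other filters, a replicate block, all 8 libraries in 1 fit, the mean of both groups of a region, and leaving out each library. Log2 CPM used a prior count of 2. The code was tested on simulated data. An exact permutation test of 2 against 2 libraries was not used, since it cannot give a p below 0.33. Coordinates and exon lengths are from GENCODE M21 (GRCm38), matched by symbol, and promoters from RefSeq on GRCm38.p6.

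The members, families, marker and partner lists and comparisons were chosen with earlier results of these data known. Named genes are those called between regions and, where none was called, some of those with the smallest p in each direction. Other genes were named after their values were seen. The values of 1 member are not reported here. NAc replicate numbers are those of the labels, and mPFC numbers follow deposition order and only name a library. Tables and figures were made with python 3.11.15, pandas 2.3.3, numpy 2.4.6 and matplotlib 3.10.9.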

Additional observations from a re-analysis of the deposited data

How the results depend on the processing

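Percentages in brackets after a count of members are the share of all genes tested that were called in the same fit. The count of 23 members called between regions in home-cage mice (12.4%) became 45 with DESeq2 (15.2%) and 39 with no filter on low counts (13.4%). With all 8 libraries in 1 fit the count was 47 (24.8%), and with the regions compared as the mean of their groups 59 (46.1%). Between cocaine NAc and defeat mPFC, a comparison chosen after seeing the data, the count was 48 (36.3%). It ranged from 0 to 70 when 1 library was left out, with 0 without either mPFC home-cage library, where the spread comes from the NAc pair alone and the lone mPFC library is assumed to vary like it. RLE factors and a filter on a mean of 0.1 CPM gave 23 (12.2% and 12.4%). All 23 genes still passed under DESeq2, both other filters, RLE factors and the mean of the groups, and 22 did with all 8 libraries, which lost Kcnh5. Without either NAc home-cage library the spread comes from the mPFC pair alone, and the lone NAc library is assumed to vary like it. Whether the calls hold therefore cannot be read from those fits. With the replicate number as a block the regional count was 25 (11.9%). The mPFC numbers follow deposition order, so this pairing across regions is arbitrary (r = 0.0783 between same-numbered libraries) and nothing is read from it. Within NAc the numbers come from the labels, and same-numbered libraries deviated together (r = 0.609), a hint of pairing from the data, although the labels name no batch and only 2 pairs exist. In the cocaine comparison this block gave 33 higher and 5 lower genes in all and 0 members. The smallest adjusted p of a member was 0.144 for Kcnmb2 (edgeR, Benjamini-Hochberg). At an unadjusted p under 0.05 stood 12 members, against 1 without the block. The share of all genes at that threshold under the block was not counted, so nothing about the members is read from the 12. No block was fitted for the defeat comparison, because the mPFC titles are numbered on through both groups and share no number between them. The counts for cocaine, defeat and the difference between responses stayed at 0 members under every alternative run. The difference between responses for Kcnj16 changed sign to 0.01 without NAc home-cage replicate 2 (range when leaving out 1 library -0.47 to 0.01), and the cause was not tested. With 2 libraries a group, the median SE of 0.217 in NAc and 0.0804 in mPFC limits what could be called, and members with under 10 counts a library are limited by depth.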
